A study of Homo sapiens with 6 samples.

Results

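A set of 7 secreted cytokines was followed in cells labelled T24: the colony-stimulating factors CSF1, CSF2 and CSF3, the interleukins IL23A, IL24 and IL32, and TSLP. These 7 genes, of 56303 in the count table, were chosen by their difference between the libraries labelled siFBXL6 and siNC, so their values in that contrast are given as a description and without a test. Of the 7, 6 had enough counts to be fitted, and TSLP did not.

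T24 is an established human bladder carcinoma line, labelled here as wild type, and the cells were grown in the same serum-containing medium in both groups. One group of 3 libraries was transfected with the control siRNA siNC and the other group of 3 with siFBXL6, directed against the F-box gene FBXL6, and RNA was taken after 48 h. RNA was sequenced as stranded mRNA libraries, which held 58646515, 60967902 and 56814946 counts for siNC replicates 1 to 3 and 60968158, 60898556 and 60754015 for siFBXL6 replicates 1 to 3. All 6 carry the same batch label. The label siFBXL6 does not say which siRNA sequence was used.

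Colony-stimulating factors were named for their support of blood cell colonies. CSF1 (M-CSF) acts on macrophages through CSF1R, CSF2 (GM-CSF) on granulocytes and macrophages, and CSF3 (G-CSF) on neutrophils. IL23A is the subunit particular to interleukin 23 and pairs with IL12B, the subunit shared with interleukin 12. IL24 belongs to the interleukin 10 family and signals through IL20RA or IL22RA1 paired with IL20RB, and TSLP signals through CRLF2 paired with IL7R. Most of these receptors act through JAK kinases and STAT factors, whereas CSF1R is itself a tyrosine kinase. Transcription of such genes is known to respond to NF-kB, AP-1 and C/EBP factors, and several of their mRNAs carry AU-rich elements that speed decay.

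The target of the siRNA was examined before the cytokines. FBXL6 had 362, 414 and 398 counts in siNC replicates 1 to 3, and 398, 344 and 350 in siFBXL6 replicates 1 to 3. The groups overlapped. Its mean level was 6.61 ± 0.38 in siNC and 6.03 ± 0.483 in siFBXL6 (SD, n = 3 per group), in CPM, that is, counts scaled to the library totals with TMM factors. The log2 fold change was -0.13 ± 0.088 (SE; adjusted p = 0.247; exact two-sided permutation p = 0.2, where 0.1 is the smallest possible). FBXL6 shares 31.7% of its exon bases with SLC52A2 on the opposite strand. The libraries are therefore called by label throughout. The cytoskeletal gene ACTB was at 1168 ± 24.5 and 1168 ± 25.8 CPM (SD, n = 3 each). Its log2 fold change was within 0.022 of 0 under every alternative tried, with a sign that flipped between scalings.

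The promoters of CSF2, IL23A and IL32 are shown first, as the windows of fitted cytokines that held a motif match before the start site. Promoter windows from RefSeq (GRCh38.p14) run from 250 bases before the start site to 50 bases from it on. Of the 7 genes 5 matched, with 8 windows, and CSF1 and CSF3 had none. The windows were searched on both strands for TATAAA, the AP-1 motif TGANTCA, the C/EBP motif TTNNGNAAT, the CK-1 core GATTCCAC and the kB consensus. Capitals mark the matches, and all 3 genes are on the plus strand.

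CSF2, chr5:132073539-132073838: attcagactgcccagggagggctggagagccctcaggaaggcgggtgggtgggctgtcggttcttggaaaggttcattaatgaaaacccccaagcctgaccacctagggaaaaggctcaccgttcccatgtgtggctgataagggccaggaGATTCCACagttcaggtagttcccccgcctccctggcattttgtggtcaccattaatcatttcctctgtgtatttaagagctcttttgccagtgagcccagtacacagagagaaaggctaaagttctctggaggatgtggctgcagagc

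IL23A, chr12:56338634-56338933: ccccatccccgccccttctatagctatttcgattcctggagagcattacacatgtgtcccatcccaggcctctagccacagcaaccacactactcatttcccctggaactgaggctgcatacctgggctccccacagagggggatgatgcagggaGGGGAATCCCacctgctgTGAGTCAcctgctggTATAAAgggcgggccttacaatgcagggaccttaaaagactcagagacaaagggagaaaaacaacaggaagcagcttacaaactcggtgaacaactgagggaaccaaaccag

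IL32, chr16:3065153-3065452: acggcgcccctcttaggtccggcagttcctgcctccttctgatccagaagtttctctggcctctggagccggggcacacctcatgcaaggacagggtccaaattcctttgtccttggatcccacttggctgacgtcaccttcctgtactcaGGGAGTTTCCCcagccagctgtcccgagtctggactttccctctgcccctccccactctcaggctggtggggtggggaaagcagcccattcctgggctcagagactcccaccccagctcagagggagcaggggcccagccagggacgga

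The CSF2 window held GATTCCAC at bases -99 to -92 from the start site, a core described in promoters of colony-stimulating factors. In the IL23A window a kB match at -95 to -86 was followed by an AP-1 match at -77 to -71 and TATAAA at -62 to -57. The IL32 window held overlapping kB matches on opposite strands between -99 and -89. Among all 35116 windows of this length, GATTCCAC was in 0.655%, TGANTCA in 7.71%, TTNNGNAAT in 11% (3862 windows), TATAAA in 11.5% and the kB consensus in 11.3%. Among the 17058 windows of tested genes the shares were 0.604%, 5.80%, 7.31%, 6.96% and 13.4% in the same order. The IL24 window (chr1:206897193-206897492, plus strand) held a C/EBP match at 21 to 29, and 1 of the 3 TSLP windows held TATAAA and a pair of kB matches. The other IL32 window and the other TSLP windows held none of the 5 motifs. A match is a description of letters, and binding was not measured.

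CSF2, CSF3 and IL23A each had many AU-rich pentamers in their 3′ untranslated regions, read from the canonical transcripts of GENCODE release 44. The pentamer ATTTA, the core of AU-rich elements, occurred 8 times in the 318 bases of CSF2, or 25.2 per kilobase. IL23A had 4 in 306 bases (13.1 per kilobase) and CSF3 7 in 854 bases (8.2 per kilobase). Over 13310 tested genes with a region of at least 100 bases, the median was 1.76 per kilobase and the 95th percentile 6.09, so these 3 genes lay above the 95th percentile, with CSF2 at rank 2. TSLP (3.59), IL24 (2.78) and CSF1 (1.86 per kilobase) lay between the median and the 95th percentile, and IL32 had none in 175 bases. The nonamer TTATTTATT was found 3 times in CSF2, once in IL23A and in none of the other 5, against 9.68% of the tested genes with at least 1. The 30 bases with the most pentamers in each of these 3 genes are shown, all on the plus strand of GRCh38 and with ATTTA in capitals.

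CSF2, chr5:132076072-132076101: ttttaaaatATTTATTTATTTATTTATTTA

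CSF3, chr17:40016975-40017004: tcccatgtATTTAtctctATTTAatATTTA

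IL23A, chr12:56340335-56340364: cagtttggggaggattATTTAttgtATTTA

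**Figure D1:**
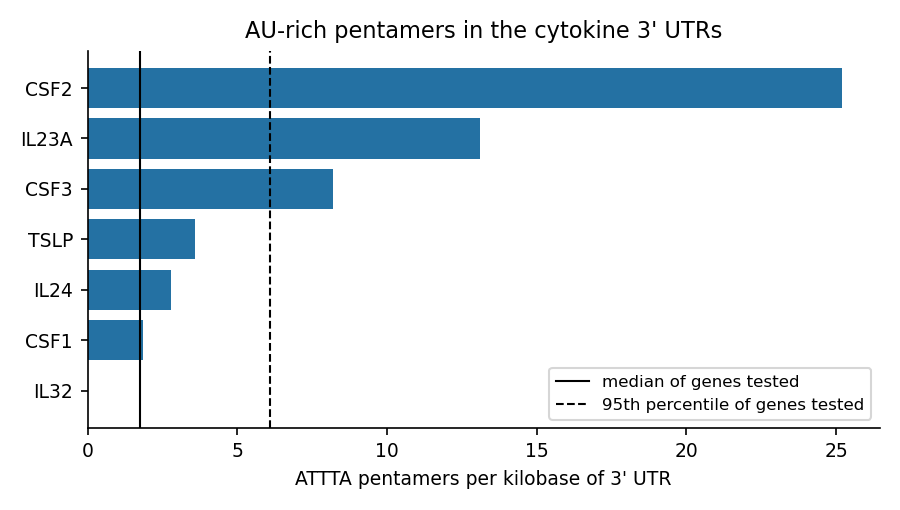
ATTTA pentamers per kilobase of 3′ untranslated region for the 7 cytokine genes (bars). The solid line is the median of 13310 tested genes (1.76) and the dashed line their 95th percentile (6.09), which CSF2 (25.2), IL23A (13.1) and CSF3 (8.2) exceed.

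CSF3 (chr17:40015361-40017813, plus strand) and IL24 had the larger fitted fold changes among the 6 genes, and their order changed with the library left out. The siNC replicates held 143, 168 and 142 counts of it, and the siFBXL6 replicates 897, 844 and 923. All 3 siFBXL6 libraries lay above all 3 siNC libraries, and neither group had a library apart from the others. Mean levels were 2.55 ± 0.151 CPM in siNC and 14.7 ± 0.679 CPM in siFBXL6 (SD, n = 3 per group), and the log2 fold change 2.53 ± 0.084 (SE; 95% interval 2.36 to 2.70). In a bulk sample, more cells making an mRNA and more mRNA per cell cannot be told apart.

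CSF2 (chr5:132073790-132076170, plus strand) reached 337, 329 and 439 counts in the siNC replicates, and 1157, 1054 and 1151 in the siFBXL6 replicates. The siNC libraries were less even here, with replicate 3 at 7.65 CPM and the others at 5.76 and 5.33, a coefficient of variation of 19.7% against 5.18% in the siFBXL6 group. The groups did not overlap. Its mean level was 6.24 ± 1.23 CPM in siNC and 18.6 ± 0.961 CPM in siFBXL6 (SD, n = 3 per group), and the log2 fold change 1.57 ± 0.083 (SE; 95% interval 1.40 to 1.74).

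CSF1 (chr1:109910242-109930992, plus strand) differed less than the other colony-stimulating factors. Its counts were 612, 670 and 640 in the siNC replicates, against 916, 871 and 966 in the siFBXL6 replicates, with no overlap. Its mean level was 10.8 ± 0.341 CPM in siNC and 15.2 ± 0.805 CPM in siFBXL6 (SD, n = 3 per group), and the log2 fold change 0.49 ± 0.063 (SE; 95% interval 0.36 to 0.62).

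IL23A (chr12:56334174-56340410, plus strand) had 749, 806 and 706 counts in the siNC replicates and rose to 2859, 2702 and 2904 in the siFBXL6 replicates. The 3 libraries of each group were close together and the groups were far apart. The span of IL23A in the table begins before the RefSeq start site used for the promoter. Its mean level was 12.7 ± 0.384 CPM in siNC and 46.7 ± 1.79 CPM in siFBXL6 (SD, n = 3 per group), and the log2 fold change 1.88 ± 0.048 (SE; 95% interval 1.78 to 1.97).

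IL32 (chr16:3065297-3082192, plus strand), a cytokine without a counterpart in rodents, had the most counts, 3413, 3406 and 3529 in the siNC replicates, against 4519, 4354 and 4520 in the siFBXL6 replicates. The groups did not overlap, yet the difference was the smallest of the 6 on the log2 scale. Its mean level was 58.3 ± 3.16 CPM in siNC and 73.9 ± 1.61 CPM in siFBXL6 (SD, n = 3 per group), and the log2 fold change 0.34 ± 0.037 (SE; 95% interval 0.27 to 0.42). RNU1-125P, a small nuclear RNA pseudogene counted 21 to 51 times, overlaps 4.02% of the exon bases of IL32.

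IL24 (chr1:206897443-206904139, plus strand) was near the detection limit in the libraries labelled siNC, at 14, 18 and 2 counts, and reached 48, 74 and 64 in those labelled siFBXL6. Its mean level was 0.189 ± 0.136 CPM in siNC and 1.03 ± 0.218 CPM in siFBXL6 (SD, n = 3 per group), and the log2 fold change had a wide error, 2.42 ± 0.361 (SE; 95% interval 1.68 to 3.15). At this depth 3 counts correspond to 0.0492 to 0.0528 CPM, and siNC replicate 3 lay below that. Low counts were mostly even across the table, 73.1% of the values from 1 to 10 against 50.5% of those above 1000, and all 6 IL24 counts were even. If both reads of a pair were counted, a count of 2 is 1 fragment, which was not tested. Halved, IL24 had 17 against 93 fragments, a ratio of 5.29 (95% counting interval 3.13 to 9.46). Such intervals and limits cover counting error only.

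TSLP (chr5:111070062-111078024, plus strand) had 0 counts in 5 libraries and 2 in siFBXL6 replicate 3, below the limit of 3 counts in each library. No fold change is given, and a difference was not detectable at this depth.

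All siFBXL6 libraries lay above all siNC libraries for the 6 fitted genes, as for 24.3% of the 21298 genes tested. The genes were chosen on this contrast, and nothing is read from that count. The median log2 fold change of the 6 was 1.73, against -0.007 over all genes tested.

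**Figure D2:**
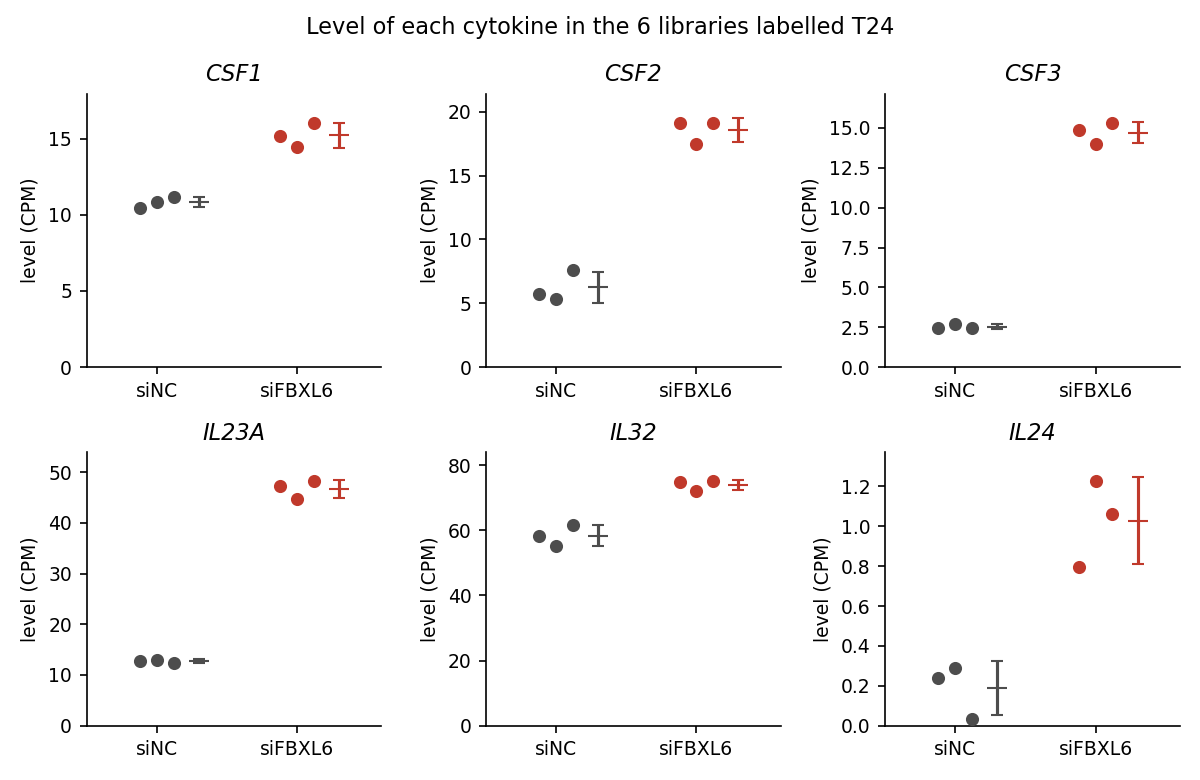
Level of the 6 fitted cytokine genes in CPM (linear axes from 0) in the 3 libraries labelled siNC (grey) and the 3 labelled siFBXL6 (red), with the mean and SD beside the points. The groups do not overlap in any panel, CSF2 varies most among the better-counted genes in siNC, and IL24 stays at 1.23 CPM or below. TSLP is left out, with 2 counts in all.

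Levels of different genes were compared per kilobase of summed exon length. In the libraries labelled siNC the order was IL32 (18.2 ± 0.985 CPM per kilobase; SD, n = 3), IL23A (10.7 ± 0.324), CSF2 (7.93 ± 1.57), CSF1 (2.00 ± 0.063), CSF3 (1.15 ± 0.068) and IL24 (0.095 ± 0.069). The libraries of each of these genes lay apart from those of the next. In the libraries labelled siFBXL6 the order became IL23A (39.4 ± 1.51), CSF2 (23.6 ± 1.22), IL32 (23.0 ± 0.501), CSF3 (6.63 ± 0.306), CSF1 (2.81 ± 0.149) and IL24 (0.519 ± 0.11). There CSF2 and IL32 did not differ beyond their spread, and the other neighbours lay apart. Per kilobase, IL23A thus passed IL32, and CSF3 passed CSF1. Both depend on the division by summed exon length, which need not be the length of the transcripts made. In CPM in the siFBXL6 group IL32 (73.9) stayed above IL23A (46.7). There CSF1 (15.2) and CSF3 (14.7) overlapped.

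The size of a change in amount was ordered otherwise than the fold change. The difference in level per kilobase was 28.7 for IL23A, 15.7 for CSF2, 5.48 for CSF3 and 4.87 for IL32, so the modest ratio of IL32 stood for nearly as many CPM per kilobase as the large ratio of CSF3. CSF1 gained 0.809 and IL24 0.424 CPM per kilobase. The 7 genes together held 40.1 ± 2.12 CPM per kilobase in the libraries labelled siNC, with IL32 as 45.4% of it, and 95.9 ± 3.56 in those labelled siFBXL6, with IL23A as 41.03% of it.

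**Figure D3:**
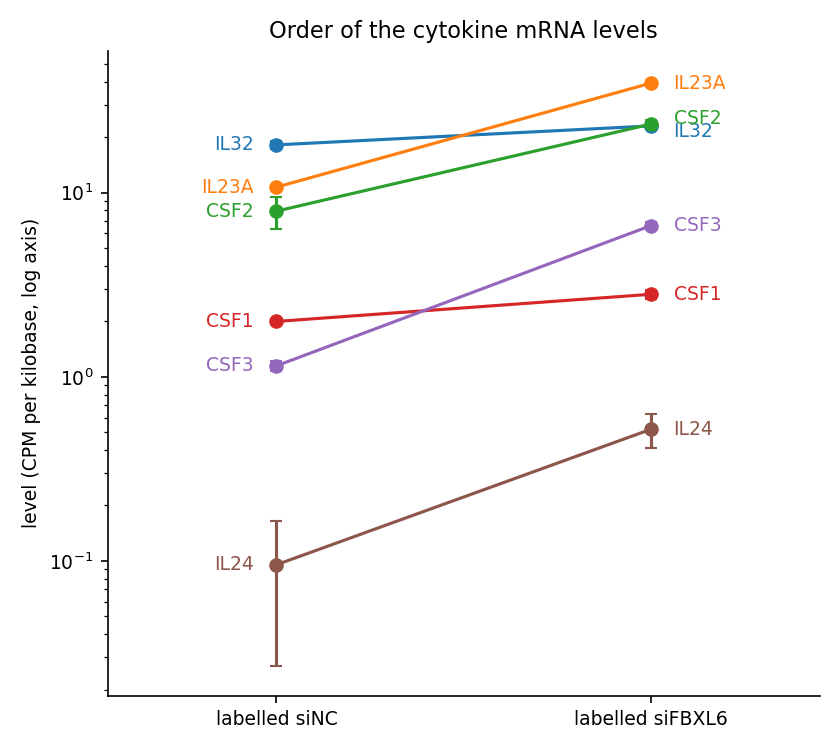
Mean level per kilobase of exon (log axis) of the 6 fitted cytokine genes in the libraries labelled siNC and siFBXL6, with SD as bars (n = 3 each). The lines of IL23A and IL32 cross, as do those of CSF3 and CSF1, and CSF2 (23.6) and IL32 (23.0) meet in the siFBXL6 group. The crossings depend on the division by exon length.

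Receptors for most of these cytokines were at or near 0 in the same cells. Of 11 receptor genes 5 had enough counts, of which 1 was called higher and 1 lower (adjusted p under 0.05 in the fit over all genes), 40% of those tested, beside 40.2% called in either direction over all genes, 20.5% higher and 19.8% lower. The median log2 fold change of the 5 was 0.04. CSF1R, the receptor of CSF1, was counted 94, 76 and 64 times against 137, 167 and 140, and rose from 1.32 ± 0.258 to 2.45 ± 0.273 CPM (SD, n = 3 per group), or 0.90 ± 0.164 (SE) as a log2 fold change (adjusted p = 3.26e-05), with all siFBXL6 libraries higher. IL7R, which pairs with CRLF2 for TSLP and with the common gamma chain for IL7, fell from 40.8 ± 1.90 to 32.5 ± 0.376 CPM (SD, n = 3 per group), or -0.33 ± 0.042 (SE) as a log2 fold change (adjusted p = 7.01e-08), with all siFBXL6 libraries lower.

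The receptor chains for IL24 were all counted and none was called. IL20RB was at 13.6 ± 1.08 and 14.0 ± 0.523 CPM (log2 fold change 0.04, 95% interval -0.10 to 0.17), IL20RA at 3.42 ± 0.39 and 3.67 ± 0.248 CPM (0.10, interval -0.13 to 0.34) and IL22RA1 at 3.56 ± 0.333 and 3.41 ± 0.327 CPM (-0.06, interval -0.30 to 0.17; SD, n = 3 each). The signs of IL20RB and IL22RA1 each turned when 1 library was left out. CRLF2 and IL23R had no count in any of the 6 libraries. IL12RB1 had at most 2 counts in a library, CSF2RA at most 6, CSF3R at most 6 and CSF2RB at most 8.

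Partner subunits and related ligands were mostly uncounted as well. Of 13 genes 3 were tested and 1 was called (33.3%, beside 40.2% of all genes tested), with a median log2 fold change of 0.46 over the 3. IL12B, the partner of IL23A in interleukin 23, had 2 counts in siNC replicate 2 and none elsewhere, below the limit of 3 counts, while IL23A itself had up to 2904. IL12A, the subunit that pairs with IL12B in interleukin 12 and with EBI3 in interleukin 35, had 67, 80 and 70 counts against 112, 99 and 102 and rose by 0.50 ± 0.17 (SE) on the log2 scale (adjusted p = 0.0178). Leaving out siNC replicate 1 ended this call (adjusted p = 0.0527), as did leaving out siFBXL6 replicate 1 (adjusted p = 0.0712), over a range of 0.0266 to 0.0712 with each library left out. EBI3 was at 10 to 17 counts (log2 fold change 0.46, adjusted p = 0.412). IL7, a ligand of IL7R, was at 27.0 ± 1.16 and 25.0 ± 1.66 CPM (SD, n = 3 each; log2 fold change -0.11, adjusted p = 0.0797), and was called lower in 3 refits, by upper-quartile scaling (adjusted p = 0.0361), by library size alone (adjusted p = 0.0377) and on leaving out siFBXL6 replicate 3 (adjusted p = 0.0248).

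IL20, singled out after its values were seen, is a gene beside IL24 in the interleukin 10 family cluster of chromosome 1. It had 0, 0 and 2 counts in the libraries labelled siNC and 18, 10 and 24 in those labelled siFBXL6, so the groups did not overlap, at levels too low for the filter when all 6 libraries were used. It was called in the refit without a filter and in 4 of the 6 refits that left out 1 library. IL20 was picked on these same values, so nothing is read from those calls. With counts halved IL20 had 1 against 26 fragments, a ratio of 25.1 with a counting interval of 4.13 to 1030. Nothing is read from that interval either, which covers counting error only. IL19, in the same cluster, had 2, 0 and 0 counts against 6, 4 and 0, with overlapping groups and a ratio of 4.83 on halved counts (interval 0.541 to 228). Neither IL3, the neighbour of CSF2 in the chromosome 5 cytokine cluster, nor IL34, the other ligand of CSF1R, had more than 4 counts in a library.

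**Figure D4:**
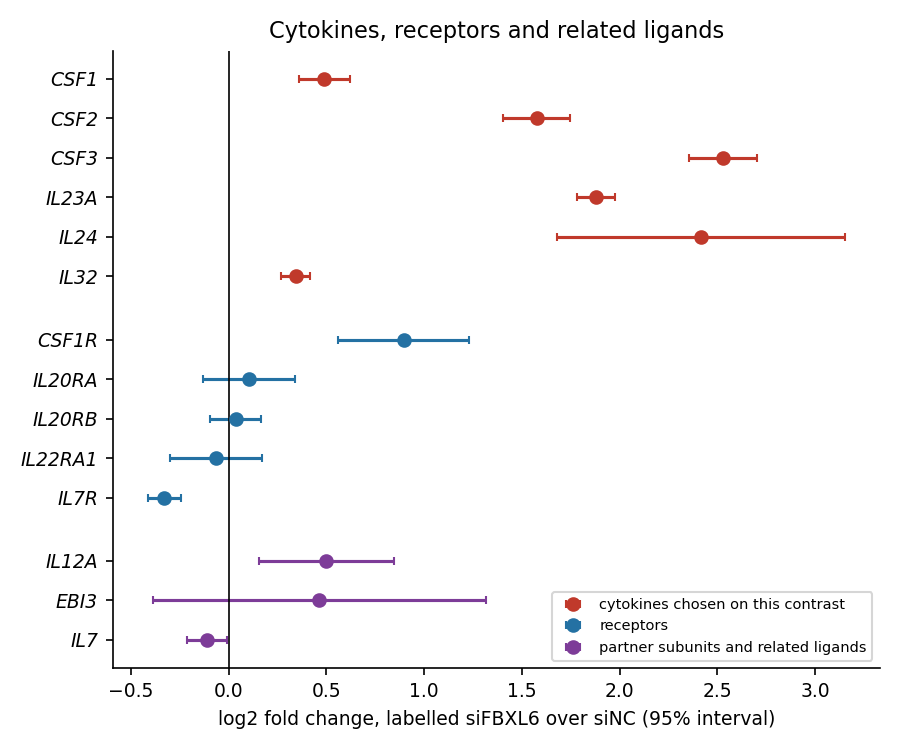
Log2 fold change of the 6 fitted cytokine genes (red), the 5 tested receptors (blue) and the 3 tested partner subunits and related ligands (purple), libraries labelled siFBXL6 over siNC, with 95% intervals from the fit (n = 3 each). The red points were chosen on this contrast and are a description. CSF1R (0.90) and IL7R (-0.33) lie on opposite sides of 0, and the 3 receptor chains for IL24 have intervals that include 0.

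The kinases and STAT factors downstream of such receptors were all expressed enough to test. Of 11 JAK and STAT genes 3 were called higher, beside 20.5% of all genes tested. JAK1, the kinase used by most cytokine receptors, rose from 120.2 ± 0.766 to 147 ± 2.84 CPM (SD, n = 3 each; log2 fold change 0.29, adjusted p = 1.27e-09), and STAT6 (0.23, adjusted p = 1.27e-06) and STAT5A (0.22, adjusted p = 0.00184) rose less.

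Feedback and target genes of STAT factors moved in both directions. Of 15 genes 7 were called higher and 3 lower, beside 20.5% and 19.8% of all genes tested, with a median of 0.08. A rise of at least 2-fold was called for 1, beside 1.77% of all genes tested. That was SOCS3, an inhibitor of JAK signalling and of the CSF3 receptor, with a rise from 7.17 ± 0.448 to 15.7 ± 0.486 CPM (SD, n = 3 each; log2 fold change 1.13, adjusted p = 1.56e-15). The kinase gene PIM1 (0.53, adjusted p = 2.53e-09) and the survival gene BCL2L1 (0.31, adjusted p = 4.004e-10) also rose. ID1, an inhibitor of helix-loop-helix factors (-0.81, adjusted p = 3.39e-15), BCL3, a nuclear partner of NF-kB (-0.79, adjusted p = 3.71e-11), and SOCS6 (-0.15, adjusted p = 0.0205) fell. Leaving out siNC replicate 3 (adjusted p = 0.0541) or siFBXL6 replicate 2 (adjusted p = 0.176) ended the call of SOCS6.

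Of 32 genes for factors known to bind cytokine promoters 30 were tested, with 14 called higher and 3 lower, beside 20.5% and 19.8% of all genes tested, and a median of 0.11. NFKB2 (log2 fold change 0.46, adjusted p = 1.94e-13) and NFKB1 (0.42, adjusted p = 1.83e-11) encode NF-kB subunits, and FOSL1 (0.41, adjusted p = 3.38e-12) a subunit of AP-1. Another AP-1 gene, JUNB, fell (-0.57, adjusted p = 1.43e-11), as did the interferon regulatory factor IRF1 (-0.27, adjusted p = 5.9e-09) and the stress-response factor ATF3 (-0.30, adjusted p = 2.24e-05).

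Of 17 genes for binders of AU-rich and stem-loop elements in cytokine mRNA, all tested, 3 were called higher and 5 lower. That is 47.1% of them, near the 40.2% called over all genes tested, and their median was -0.05. ZFP36, whose protein binds AU-rich elements and promotes decay of mRNAs such as that of CSF2, rose from 5.15 ± 0.0936 to 6.63 ± 0.0627 CPM (SD, n = 3 each; log2 fold change 0.36, adjusted p = 0.000808). Its relative ZFP36L2 fell (-0.30, adjusted p = 4.16e-05). ZC3H12C (0.39, adjusted p = 1.59e-08) and ZC3H12D (0.61, adjusted p = 0.00639), of the Regnase family, rose. HNRNPD, which encodes the AU-binding protein AUF1, fell (-0.33, adjusted p = 1.67e-12), as did TIA1 (-0.26, adjusted p = 6.54e-07). The stability of the cytokine mRNAs was not measured.

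**Figure D5:**
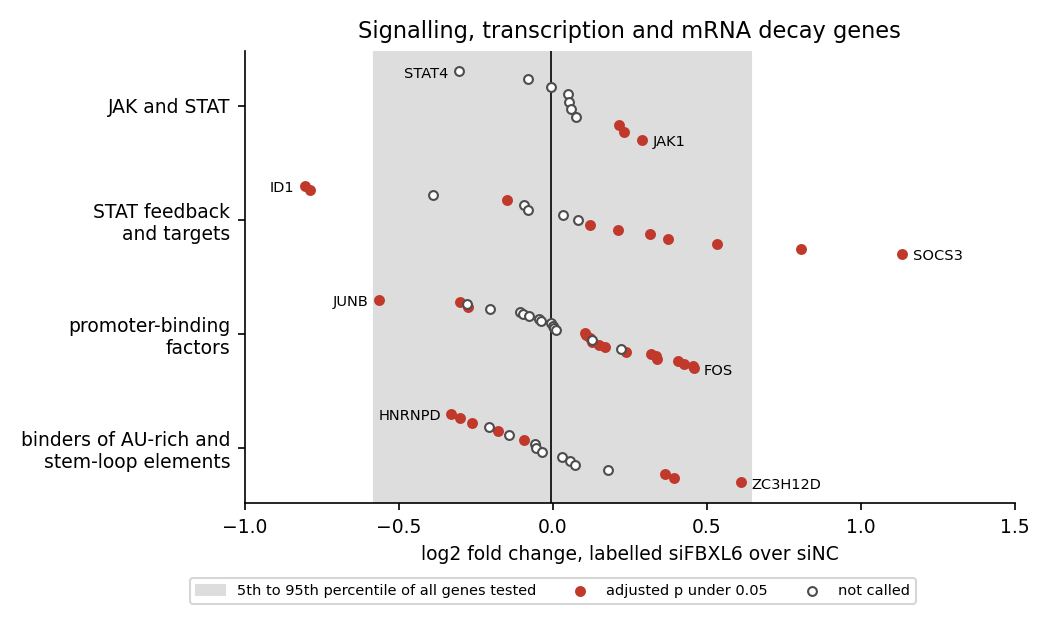
Log2 fold change (libraries labelled siFBXL6 over siNC) of the tested genes in 4 lists, 1 gene left out, filled red where the adjusted p was under 0.05 and open otherwise. The grey band spans the 5th to 95th percentile of all genes tested (-0.58 to 0.64). Most list genes lie inside it, with SOCS3 (1.13), ID1 (-0.81) and BCL3 (-0.79) among those outside.

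Genes beside the cytokines on their chromosomes were called in both directions. The nearest genes at a mean level of 1 CPM or more on each side make 14 genes, of which 4 were called higher and 3 lower, where 20.5% and 19.8% of all genes tested were, with log2 fold changes from -0.48 (GSTM3, beside CSF1) to 0.74 (ACSL6, 61.5 kb from CSF2). IL23A lies 121 bases from the span of PAN2 (-0.09, adjusted p = 0.363) and 1.19 kb from STAT2 (0.05, adjusted p = 0.469). CSF3 lies 1.28 kb from MED24 (-0.06, adjusted p = 0.2498) and 17.4 kb from PSMD3 (-0.13, adjusted p = 0.00105). Beside IL24, C1orf116 rose (0.48, adjusted p = 2.33e-10). The smaller calls of MAPKAPK2 beside IL24 (0.10), WDR36 beside TSLP (0.14) and MMP25 beside IL32 (-0.32) were each lost under at least 1 alternative.

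The genes most like each cytokine were sought among 16192 others at a mean level of 1 CPM or more, by the root mean square difference of log2 CPM over the 6 libraries, each gene centred on its mean. IL23A was closest to SCEL (0.041), the clone-named RP13-463N16.6 (0.044) and GAPDH (0.0596). GAPDH, a glycolytic enzyme, went from 188 ± 6.15 to 656.6 ± 4.15 CPM (SD, n = 3 each). CSF3 was closest to TRPV3 (0.182), IL36G, another cytokine gene (0.188), and AC003092.1 (0.197). CSF2 was closest to IL1RN, the interleukin 1 receptor antagonist (0.122), MYCT1 (0.144) and AOX1 (0.148). CSF1 was closest to ARHGAP39 (0.028), GSTO1 (0.0297) and EAF1-AS1 (0.0301), and IL32 to WNT7B (0.023), RP5-827C21.4 (0.025) and DNTTIP1 (0.025). None of the 5 had another of these 5 among its closest 3. This distance mostly follows the fold change on which the cytokines were chosen. The 5 differ in fold change, so nothing is read from their lying apart. IL24 and TSLP lay below the level searched.

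Markers of the cells that usually make or receive these cytokines were checked in all 6 libraries. The 16 leukocyte markers summed to 11.6, 11.9 and 11.8 CPM in the libraries labelled siNC and 24.8, 23.6 and 24.6 in those labelled siFBXL6, and 7 of them lacked enough counts. The most counted was CD68, a lysosomal protein also made outside leukocytes, at 394, 404 and 391 counts against 1182, 1070 and 1146. Without CD68 the sums were 4.82, 5.31 and 4.96 against 5.23, 5.91 and 5.63 CPM, and the groups overlapped. Of the 9 tested markers 2 were called higher, CD68 and CSF1R, described above as a receptor, and 1 lower, beside 20.5% and 19.8% of all genes tested. The lower one was CD8A, at 63, 76 and 63 counts against 39, 45 and 49 (log2 fold change -0.63, adjusted p = 0.0196), a call lost on leaving out siNC replicate 2 (adjusted p = 0.0775) or siFBXL6 replicate 1 (adjusted p = 0.0833), over a range of 0.0276 to 0.0833 with each library left out. Of the defining markers, PTPRC had 14 to 43 counts in a library and CD3E at most 4. The part of CD68-expressing cells in the cytokine values was not tested.

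Fibroblast markers (10 genes) summed to 77.0, 81.5 and 78.5 CPM against 64.8, 64.4 and 61.8. COL1A1 had the highest mean over both groups, at 33.2 CPM. Of the 9 tested, 3 were called lower and none higher, beside 19.8% and 20.5% of all genes tested. Among them THY1 fell from 36.8 ± 1.52 to 25.9 ± 0.671 CPM (SD, n = 3 each; log2 fold change -0.51, adjusted p = 1.94e-11). Endothelial markers (8 genes) summed to 3.33, 2.87 and 3.15 against 4.30, 3.58 and 4.56 CPM, with KDR the most counted at 1.09 CPM. Of the 5 endothelial markers tested 1 was called, higher (20%, near the 20.5% called higher over all genes tested). It was PECAM1, at 25, 40 and 37 counts against 79, 65 and 108 (log2 fold change 1.28, adjusted p = 4.4e-05). Without PECAM1 the sums were 2.91, 2.22 and 2.51 against 2.99, 2.50 and 2.77 CPM, and the groups overlapped. The 15 epithelial and urothelial markers summed to 4085, 3956 and 4069 against 3631, 3620 and 3635 CPM, with KRT7 the most counted at 1011 CPM. Of the 12 tested, 2 were called higher, CDH1 and TP63, and 7 lower, beside 20.5% and 19.8% of all genes tested. CDH1 was at 118 ± 2.71 and 132 ± 2.79 CPM, EPCAM at 274 ± 10.1 and 248 ± 7.03 and KRT5 at 437 ± 6.77 and 313 ± 2.12 (SD, n = 3 each). UPK1A had no count in any of the 6 libraries, and UPK1B and UPK3A had at most 6 in a library. The mesenchymal genes VIM and CDH2, chosen after their values were seen, moved in opposite directions. VIM rose from 15.6 ± 0.513 to 25.4 ± 0.528 CPM (log2 fold change 0.70, adjusted p = 2.57e-13) and CDH2 fell from 137.6 ± 1.83 to 91.7 ± 1.21 CPM (-0.59, adjusted p = 3.8e-17; SD, n = 3 each), with no overlap for either. T24 is usually described as low in CDH1 and high in VIM, whereas these libraries held 6777 to 8168 counts of CDH1 and 866 to 1571 of VIM, which is unexpected for that line. The methods of the paper state that its cell lines were checked by short tandem repeat profiles. The identity of these libraries was not tested here, and the part of these marker changes in the cytokine values was not tested.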

How the data were processed

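RNA-seq of 6 libraries was analysed from the table of read counts per gene that the authors deposited, without normalization. The deposited count table names genes by symbol, with exon coordinates and summed exon length. The submitters' processing notes name fastp 0.23.0, STAR and featureCounts (Subread 1.5.1) with GRCh38, whereas the methods of the paper name another trimmer and aligner, Trimmomatic and HISAT2. Genes were filtered with filterByExpr (21298 of 56303 kept), normalized by TMM and tested with the quasi-likelihood test of edgeR 4.0.16 (limma 3.58.1, R 4.3.3), on condition alone, and p-values were adjusted by Benjamini-Hochberg over all genes tested. Called means an adjusted p under 0.05. Libraries of a group differed by more than sampling of independent counts (chi-square per degree of freedom 2.76 to 5.8). Counting both reads of a pair would raise these values, so the size of the excess over sampling is not known. The steps were tested on simulated data.

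The cytokines and gene lists were chosen with earlier results of these data known. Named genes were every cytokine, FBXL6 and ACTB, every receptor, partner or related ligand with enough counts, the 3 smallest adjusted p-values in each direction among called genes of each other list, the nearest gene on each side at 1 CPM or more, and the 3 genes most like each cytokine at 1 CPM or more. IL20, IL19, VIM, CDH2, the markers given by name and the uncounted receptors and ligands were named after their values were seen. The plot of the 4 lists labels the highest and lowest gene shown, whatever the rule. Values of 1 gene that the rule takes are left out. Alternatives were DESeq2 1.42.0, other scalings and filters, a replicate block, leaving out each library, a 2-fold call and another AU-rich motif. Halved counts were added after seeing the data. Scripts ran in pandas and numpy.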

Additional observations from a re-analysis of the deposited data

How the results depend on the processing

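The log2 fold changes of the 6 fitted cytokine genes kept their direction, which the choice of genes fixes. All 83 values under the 14 refits moved by less than 1 SD of the replicates. IL24 was absent where 10 counts were asked of every library. Leaving out 1 of 3 libraries can hardly move a log2 fold change by 1 SD, so nothing is read from this for those refits. With each library left out the log2 fold changes ran from 2.50 to 2.58 for CSF3, 1.94 to 2.88 for IL24, 1.85 to 1.91 for IL23A, 1.47 to 1.74 for CSF2, 0.45 to 0.53 for CSF1 and 0.30 to 0.38 for IL32. Their median was 1.58 with at least 10 counts in every library and 1.68 to 1.80 with each library left out. With a 2-fold call, 378 genes were higher and 244 lower. The partner and related ligand genes called were 2 with upper-quartile factors, 2 with library size alone, 2 without a filter on low counts (IL12A and IL20) and 0 to 2 with each library left out. IL20 was called in 4 of those 6, without each siNC replicate and without siFBXL6 replicate 2, and was the 1 gene called without siNC replicate 1. It was singled out after its values were seen, so nothing is read from these calls of IL20. The nonamer was in 2 of the genes, where the pentamer was in 6. ACTB turned to -0.019 with upper-quartile factors, -0.022 with library size alone, -0.00083 without a filter and -0.0036 with counts halved, an alternative chosen after seeing the data, and SLC25A46 to -0.00069 with upper-quartile factors and -0.0035 with library size alone. With each library left out ACTB ran from -0.018 to 0.018, SLC25A46 from -0.021 to 0.051, IL20RB from -0.0074 to 0.10 and IL22RA1 from -0.14 to 0.011. The cause was not tested, and none of these 4 genes was called. Of 1007 values of 72 named genes, 962 kept direction and call, 26 lost a call, 6 gained one and 13 changed sign. With the replicate block, FBXL6 was at -0.13 (adjusted p = 0.264), and same-numbered libraries were uncorrelated (r from -0.046 to 0.012 over 16193 genes). Depth limits IL24, TSLP, IL20 and most receptors, which had few counts.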
